A study of Mus musculus with 12 samples.

Results

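RNA of HoxB8 cells that carried the receptor mutation T618I alone was compared directly with RNA of HoxB8 cells that carried a truncated Asxl1 alone, across all genes, to show how these 2 single lesions differ. The comparison used the 3 libraries whose column in the count table is named T618I and the 3 whose column is named Asxl1, 6 of the 12 libraries in all. HoxB8 cells are mouse bone marrow progenitors immortalised by Hoxb8, which works in them only while estrogen is in the medium. All groups grew in medium with stem cell factor, carried a pMIG and a pMICH vector, and had estrogen withdrawn for 24 h before RNA was taken. Empty/T618I cells carried an empty pMIG and a pMICH with CSF3R-T618I. Asxl1-MT2/Empty cells carried a pMIG with Asxl1-MT2, which the design text describes as truncated Asxl1, and an empty pMICH. Asxl1-MT2/T618I cells carried both constructs and Empty/Empty cells carried both empty vectors. These last groups, also of 3 libraries each, entered the fit and serve below only to show where a gene stood with both lesions or with neither. The labels do not say whether libraries within a group are separate cultures, and the spread that the p-values rest on may then be technical. Both proteins were overexpressed from vectors in 1 immortalised line, with the cells' own Asxl1 and Csf3r still present.

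CSF3R binds granulocyte colony-stimulating factor, the main growth factor of neutrophils. It signals through JAK kinases and STAT factors, and it induces SOCS proteins that shut the signal down. T618I lies close to the membrane and makes the human receptor signal without its ligand, and it is the best known mutation of chronic neutrophilic leukaemia. ASXL1 is a chromatin protein that works with the deubiquitinase BAP1 on Polycomb-marked histones, and truncating ASXL1 mutations are common in human myeloid neoplasms. Withdrawal of estrogen releases HoxB8 cells from their block, after which they mature along the myeloid path.

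The genotype label of 1 library goes against its title: the library titled Empty/Empty 3 is given CSF3R-T618I as its genotype. Which column letter (A, B or C) belongs to that title is not given, and groups were taken from titles and column names. Library totals of the 6 libraries compared ran from 9341984 to 10204473 counts. On the first principal component of all 12 libraries (69.9% of the variance) the Empty/T618I libraries lay at 38.3, 31.3 and 43.0, against -53.0, -53.0 and -54.2 for Asxl1-MT2/Empty. Empty/Empty libraries A, B and C lay at -46.5, -48.5 and -46.0, so none stood with the Empty/T618I libraries there. The letter C libraries of Empty/T618I, Asxl1-MT2/Empty and Empty/Empty stood apart from the A and B libraries of their groups on the fourth component, at 15.2, 11.2 and 16.3, and Empty/T618I library B was lowest in mast cell genes, as given below. Levels are CPM, counts relative to library sizes scaled by TMM factors. Calls rest on the quasi-likelihood test of edgeR over 11578 genes, with an adjusted p under 0.05. A positive log2 fold change means higher in Empty/T618I than in Asxl1-MT2/Empty.

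The construct genes were examined first. Asxl1 (chromosome 2, 153345830 to 153404007, GRCm38.p6) stood at 145, 134 and 167 CPM in Empty/T618I, against 1833, 1678 and 1723 CPM in Asxl1-MT2/Empty. Its level was 116, 125 and 117 CPM in Empty/Empty, so all 3 Asxl1-MT2/Empty libraries lay above every library without the construct (log2 fold change -3.55 ± 0.10 (SE), adjusted p = 3.54e-14). Csf3r (chromosome 4, 126023441 to 126044975) was at 452, 456 and 386 CPM in Empty/T618I, against 320.4, 307 and 253 CPM in Asxl1-MT2/Empty, without overlap. This difference was small (log2 fold change 0.56 ± 0.19 (SE), adjusted p = 0.0302), and the call was lost without Empty/T618I library A or B or without Asxl1-MT2/Empty library B or C (highest adjusted p 0.109, from the same edgeR test). Whether reads of the vector-borne CSF3R count to mouse Csf3r is not given in the sources used here. Socs3, the STAT-induced inhibitor of CSF3R signalling, gave a clearer reading of the T618I label, at 167, 151 and 176 CPM in Empty/T618I, 10.7, 10.4 and 11.1 CPM in Asxl1-MT2/Empty and 13.8, 11.9 and 12.4 CPM in Empty/Empty. None of the Empty/Empty libraries, among them the one with the disputed genotype, came near the Empty/T618I level of Socs3. Hoxb8 (chromosome 11, 96279401 to 96285325) was at 332, 242 and 299 CPM in Empty/T618I, against 745, 769 and 646 CPM in Asxl1-MT2/Empty, lower in all 3 Empty/T618I libraries (log2 fold change -1.31 ± 0.10 (SE), adjusted p = 1.39e-08), a call lost when library B of Empty/Empty was moved to the Empty/T618I group. How many of its reads come from the Hoxb8 that immortalised the cells, and not from this locus, is not given either. The labelled progenitor type was visible in both groups: Mpo was at 12401, 12678 and 10924 CPM in Empty/T618I, against 31426, 30715 and 28439 CPM in Asxl1-MT2/Empty, Elane at 813, 1027 and 687 CPM in Empty/T618I, against 1700.4, 1693 and 1529 CPM in Asxl1-MT2/Empty, Prtn3 at 1946, 2099 and 1661 CPM in Empty/T618I, against 3523, 3495 and 2767 CPM in Asxl1-MT2/Empty, and Kit and Cd34 were present in all 6 libraries.

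**Figure D1:**
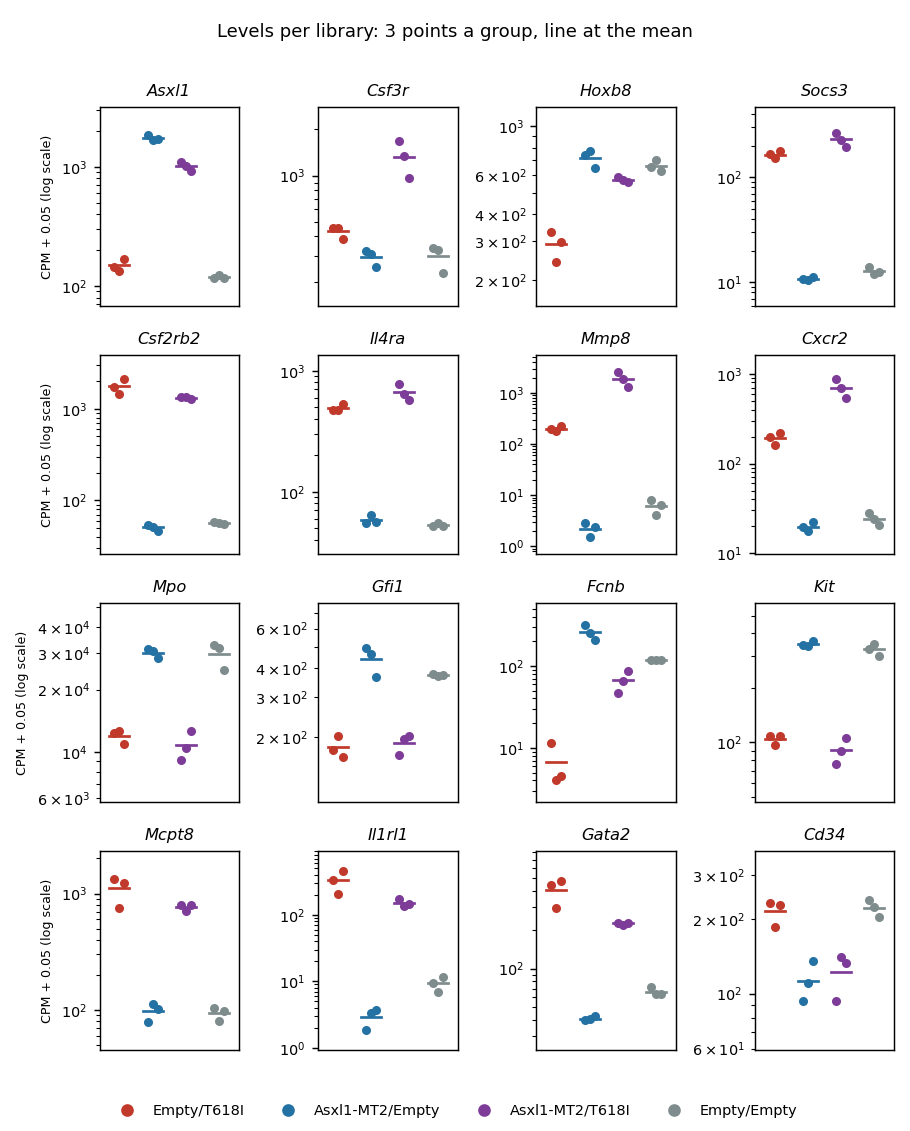
Levels of 16 genes in CPM plus 0.05 on a log axis, with 1 point per library and a line at the group mean, for Empty/T618I, Asxl1-MT2/Empty, Asxl1-MT2/T618I and Empty/Empty from left to right in each panel. Socs3 lay at 165 CPM on average in Empty/T618I and 10.7 CPM in Asxl1-MT2/Empty, and Mpo, Gfi1, Fcnb and Kit were lower in all 3 Empty/T618I libraries than in all 3 Asxl1-MT2/Empty libraries.

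The single lesions differed in 4544 of the 11578 genes tested (39.2%). Of these, 2353 (20.3% of genes tested) were higher and 2191 (18.9%) were lower in Empty/T618I. A difference of at least 2-fold was called for 1523 genes (13.2%), 937 higher (8.09%) and 586 lower (5.06%), and a difference of at least 4-fold for 533 higher and 204 lower. The large differences were therefore more often higher in Empty/T618I, while calls of any size were split nearly evenly. The 3 and 3 libraries did not overlap in 5725 genes (49.4%). Genes called higher took 24.2%, 24.0% and 25.3% of the counts in the Empty/T618I libraries, against 15.5%, 15.8% and 16.4% in the Asxl1-MT2/Empty libraries. Genes called lower took 17.1%, 16.9% and 16.4% in Empty/T618I, against 27.2%, 26.3% and 25.9% in Asxl1-MT2/Empty. The median absolute log2 fold change over all genes tested was 0.24. Because 1 Empty/Empty library has the disputed genotype, each was moved in turn to the Empty/T618I group, which left 2085 (library A), 2007 (B) and 2640 (C) genes called. Of the 309 called genes that the rule for named genes chose, 128 lost the call under at least 1 of these relabellings. Each move puts a library with a low Socs3 level, as given above, into the Empty/T618I group. A call lost in this way therefore does not show whether it holds under the titles. With any 1 of the Empty/Empty libraries left out instead, 4455 to 4806 genes were called. The 5 genes with the smallest p were Asxl1, Socs3, Csf2rb2, Csf1 and Serpine2.

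**Figure D2:**
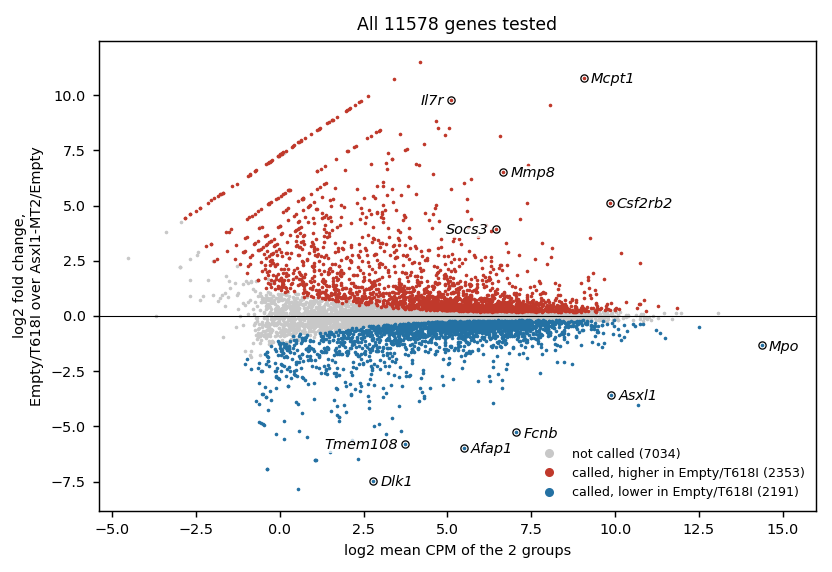
Log2 fold change of Empty/T618I over Asxl1-MT2/Empty against the log2 mean CPM of both groups for the 11578 genes tested, with 2353 genes called higher in red, 2191 called lower in blue and 7034 not called in grey. The rows of points at upper left are genes with 0 or few counts in Asxl1-MT2/Empty, whose fitted fold change depends on the prior count.

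Genes that CSF3R and STAT signalling are known to induce were higher in Empty/T618I. Of 31 tested members of a list of signalling feedback genes and STAT targets, 24 were called higher and 1 lower (all genes tested: 20.3% and 18.9%). The list median of the log2 fold change was 0.78, against 0.00045 over all genes tested. Socs3 had a log2 fold change of 3.94 ± 0.12 (SE). Socs1, a second inhibitor of JAK kinases, was at 13.7, 14.7 and 12.2 CPM in Empty/T618I, against 0.0989, 0.395 and 0.399 CPM in Asxl1-MT2/Empty (log2 fold change 5.45 ± 0.36 (SE), adjusted p = 1.77e-09). Cish, a STAT5-induced inhibitor, was at 22.8, 20.4 and 22.0 CPM in Empty/T618I, against 5.93, 5.82 and 5.09 CPM in Asxl1-MT2/Empty (log2 fold change 1.9505 ± 0.13 (SE), adjusted p = 2.82e-09). All 3 inhibitors were higher in each Empty/T618I library than in any Asxl1-MT2/Empty library, whereas Socs2 was at 2.50, 4.20 and 1.15 CPM in Empty/T618I and 2.77, 2.47 and 1.80 CPM in Asxl1-MT2/Empty and was not called (adjusted p = 0.747). Il4ra, a receptor chain for interleukin-4 and a known STAT target, was at 474, 471 and 532 CPM in Empty/T618I, against 55.6, 63.7 and 55.8 CPM in Asxl1-MT2/Empty (log2 fold change 3.08 ± 0.11 (SE), adjusted p = 6.19e-13). Osm, the cytokine oncostatin M, was at 36.0, 41.2 and 40.3 CPM in Empty/T618I, against 4.75, 5.23 and 4.79 CPM in Asxl1-MT2/Empty, again without overlap (log2 fold change 2.99 ± 0.14 (SE), adjusted p = 2.32e-11). The kinase gene Pim1 differed less, with 491 ± 8.37 CPM in Empty/T618I and 315 ± 20.6 CPM in Asxl1-MT2/Empty (log2 fold change 0.64 ± 0.071 (SE), adjusted p = 1.03e-06). Bcl6, a transcriptional repressor, was at 30.7 ± 3.38 CPM in Empty/T618I and 17.1 ± 0.615 CPM in Asxl1-MT2/Empty (log2 fold change 0.85 ± 0.17 (SE), adjusted p = 9.89e-04). Ccnd2, which encodes cyclin D2, was the member called lower, at 53.1, 64.7 and 47.5 CPM in Empty/T618I, against 152, 168 and 202 CPM in Asxl1-MT2/Empty (log2 fold change -1.66 ± 0.14 (SE), adjusted p = 5.24e-08).

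Promoters of these genes were searched for TTCNNNGAA, the palindromic letters that STAT dimers bind, which read the same on both strands. The window ran from 250 bases before to 50 after the gene start in RefSeq (GRCm38.p6), and 8920 tested genes had one. The letters were present in 7.1% of all windows, 8.31% of those of genes called higher and 6.76% of those of genes called lower. In the list of feedback genes and STAT targets, 4 of the 20 genes called higher with a window (20%) held them. These 4 promoters are shown because they belong to members that differed between the lesions, with the matched letters in capitals.
Socs3, chr11:117969317-117969616, minus strand: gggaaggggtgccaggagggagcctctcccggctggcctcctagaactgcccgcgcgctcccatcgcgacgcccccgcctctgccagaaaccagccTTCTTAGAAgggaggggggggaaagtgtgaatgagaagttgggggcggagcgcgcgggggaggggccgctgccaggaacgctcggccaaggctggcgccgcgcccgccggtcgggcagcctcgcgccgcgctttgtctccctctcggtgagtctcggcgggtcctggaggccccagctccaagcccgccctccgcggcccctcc
Cish, chr9:107296409-107296708, plus strand: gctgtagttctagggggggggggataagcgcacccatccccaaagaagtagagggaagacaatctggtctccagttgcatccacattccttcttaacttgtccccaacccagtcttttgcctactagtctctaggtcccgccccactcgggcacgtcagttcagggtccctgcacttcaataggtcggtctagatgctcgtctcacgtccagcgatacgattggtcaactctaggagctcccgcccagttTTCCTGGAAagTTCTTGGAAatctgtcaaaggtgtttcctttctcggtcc
Sbno2, chr10:80102653-80102952, minus strand: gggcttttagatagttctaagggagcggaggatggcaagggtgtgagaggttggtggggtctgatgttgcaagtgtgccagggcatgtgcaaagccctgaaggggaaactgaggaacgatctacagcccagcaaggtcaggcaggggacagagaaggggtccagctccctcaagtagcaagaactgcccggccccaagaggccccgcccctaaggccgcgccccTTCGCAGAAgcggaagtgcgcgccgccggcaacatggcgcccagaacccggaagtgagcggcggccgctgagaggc
Bcl6, chr16:23988803-23989102, minus strand: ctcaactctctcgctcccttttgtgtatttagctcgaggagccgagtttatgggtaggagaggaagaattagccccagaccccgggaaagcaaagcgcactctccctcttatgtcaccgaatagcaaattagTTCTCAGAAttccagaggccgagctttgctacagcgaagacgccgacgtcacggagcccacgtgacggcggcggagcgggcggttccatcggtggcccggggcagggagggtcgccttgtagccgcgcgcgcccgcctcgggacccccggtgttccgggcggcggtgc
Positions are counted from the RefSeq start that each window is built on. For Socs3 that start lies inside the gene's listed span (chromosome 11, 117966079 to 117970336), and for Sbno2 and Bcl6 the window is the first of 3 and of 2. The match began 154 bases before that start in Socs3, 26 before in Sbno2 and 118 before in Bcl6. In Cish there were 2 matches, one at that start and one 11 bases after it. The windows of Socs1, Pim1 and Il4ra, which were also higher, held none. A match is a description of the letters and says nothing of binding in these cells.

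Cytokine receptors and their kinases differed most in a few genes. Of 43 tested JAK, STAT and receptor genes, 22 were called higher and 9 lower (all genes tested: 20.3% and 18.9%), with a median of 0.43. Some of them, with Jak2, Stat3 and Stat5a, are also members of the list of feedback genes and STAT targets. Csf2rb2, the mouse-specific beta chain of the interleukin-3 receptor, was at 1730.0, 1462 and 2138 CPM in Empty/T618I, against 54.2, 51.5 and 46.8 CPM in Asxl1-MT2/Empty (log2 fold change 5.13 ± 0.13 (SE), adjusted p = 1.23e-14). The gap was large against the spread, since the lowest Empty/T618I library stood far above the highest Asxl1-MT2/Empty library. Csf2rb2 is a close copy of Csf2rb, and how reads were divided between them is not known. Osmr, the oncostatin M receptor, was at 10.2, 8.21 and 9.29 CPM in Empty/T618I, against 0, 0 and 0.0998 CPM in Asxl1-MT2/Empty. Only 1 read fell on Osmr in Asxl1-MT2/Empty, and the ratio of summed counts was 279 (95% interval 49.7 to 11070.0), an interval that covers counting error only. Il9r had 0 counts in Asxl1-MT2/Empty and was at least 21.5-fold higher in Empty/T618I (against a floor of 3 counts over the group). Jak2, the kinase that CSF3R uses, was at 112, 86.6 and 146 CPM in Empty/T618I, against 53.4, 50.7 and 64.2 CPM in Asxl1-MT2/Empty (log2 fold change 1.03 ± 0.18 (SE), adjusted p = 3.18e-04). Stat3 was higher by 0.50 ± 0.079 (log2, SE, adjusted p = 5.75e-05) and Stat5a by 0.34 ± 0.085 (adjusted p = 0.00349), while Stat5b was at 100.05 and 86.7 CPM in Empty/T618I and Asxl1-MT2/Empty and was not called (adjusted p = 0.0603). Among receptors lower in Empty/T618I, Tnfrsf1b, a receptor for tumour necrosis factor, was at 130.4 ± 5.92 CPM in Empty/T618I and 282 ± 7.83 CPM in Asxl1-MT2/Empty (log2 fold change -1.11 ± 0.094 (SE), adjusted p = 3.85e-08). Ifngr1, a chain of the interferon gamma receptor, was at 161 ± 9.41 CPM in Empty/T618I and 281 ± 14.1 CPM in Asxl1-MT2/Empty (log2 fold change -0.80 ± 0.076 (SE), adjusted p = 1.58e-07).

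Neutrophil granules form in order as the cell matures, and the genes of early and late granules differed in opposite directions. Of 17 tested genes in the list of primary granules, which promyelocytes use, 13 were called lower and 2 higher in Empty/T618I, with a median of -0.72. The 4 members lower by at least 2-fold were Igll1, Nkg7, Clec12a and Mpo (log2 fold changes -4.96, -2.39, -2.09 and -1.33). Igll1 is also counted in the lymphoid list, and of these 4 only Mpo is a granule enzyme. Of all genes tested, 18.9% were called lower and 20.3% higher. Of 42 genes tested in the list of tertiary granules and mature neutrophils, 31 were called higher and 4 lower, with a median of 1.56. The 23 tested secondary granule genes were split, 9 higher and 10 lower, and the sign of their median (-0.085) changed when 1 library was left out (without Empty/T618I library B it was 0.13). Primary granule genes summed to 24768 to 27324 CPM in Empty/T618I and 50341 to 54110 CPM in Asxl1-MT2/Empty. In bulk RNA, fewer cells of a type and less RNA per cell cannot be told apart.

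Mpo, which encodes myeloperoxidase, was lower, with a log2 fold change of -1.33 ± 0.12 (SE, adjusted p = 1.02e-07). Ctsg, cathepsin G, was at 2078, 2065 and 1662 CPM in Empty/T618I, against 4001, 3889.6 and 3549 CPM in Asxl1-MT2/Empty (log2 fold change -0.98 ± 0.10 (SE), adjusted p = 3.09e-07), with no overlap between the groups. Elane, neutrophil elastase, and Prtn3, proteinase 3, had log2 fold changes of -0.96 and -0.78 (adjusted p = 1.85e-05 and 1.64e-05). Ctsc, the cathepsin that activates these serine proteases, went the other way, at 155, 141 and 163 CPM in Empty/T618I, against 82.5, 92.9 and 115 CPM in Asxl1-MT2/Empty (log2 fold change 0.66 ± 0.11 (SE), adjusted p = 9.61e-05). Among secondary granule genes, Mmp8, neutrophil collagenase, was at 195, 179.6 and 229 CPM in Empty/T618I, against 2.77, 1.48 and 2.30 CPM in Asxl1-MT2/Empty (log2 fold change 6.52 ± 0.32 (SE), adjusted p = 5.86e-09). Lcn2, lipocalin 2, was at 927, 766 and 829 CPM in Empty/T618I, against 415, 329 and 298 CPM in Asxl1-MT2/Empty (log2 fold change 1.28 ± 0.14 (SE), adjusted p = 2.07e-06). Cd177, a neutrophil surface protein, was at 140.2, 112 and 109 CPM in Empty/T618I, against 21.3, 22.1 and 13.1 CPM in Asxl1-MT2/Empty (log2 fold change 2.68 ± 0.27 (SE), adjusted p = 7.81e-06). Other members of the same list stood lower in Empty/T618I. Camp, cathelicidin, was at 6.06, 3.53 and 2.61 CPM in Empty/T618I, against 19.7, 14.5 and 11.4 CPM in Asxl1-MT2/Empty (log2 fold change -1.89 ± 0.35 (SE), adjusted p = 7.76e-04). Ngp, neutrophilic granule protein, was at 508, 332 and 335 CPM in Empty/T618I, against 1204, 686 and 768 CPM in Asxl1-MT2/Empty (log2 fold change -1.18 ± 0.28 (SE), adjusted p = 0.00668), a call lost without the letter C libraries. Fcnb, ficolin B, was at 11.5, 4.01 and 4.49 CPM in Empty/T618I, against 313, 254 and 206 CPM in Asxl1-MT2/Empty (log2 fold change -5.26 ± 0.35 (SE), adjusted p = 4.28e-07), the largest difference in this list among genes lower in Empty/T618I. Ltf, lactoferrin, was higher at 128, 77.9 and 87.6 CPM in Empty/T618I, against 47.5, 29.5 and 30.1 CPM in Asxl1-MT2/Empty, although its Empty/Empty libraries at 119, 41.0 and 115 CPM spanned parts of both ranges. Its call was also lost without the letter C libraries.

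Several genes of late neutrophils, chosen by the rule for named genes, are given here. Mmp9, gelatinase B, was at 81.5, 51.4 and 68.5 CPM in Empty/T618I, against 1.68, 1.09 and 0.898 CPM in Asxl1-MT2/Empty (log2 fold change 5.76 ± 0.42 (SE), adjusted p = 5.47e-07). Cxcr2, the chemokine receptor of mature neutrophils, was at 199.9, 161 and 219 CPM in Empty/T618I, against 19.6, 17.8 and 22.2 CPM in Asxl1-MT2/Empty (log2 fold change 3.29 ± 0.19 (SE), adjusted p = 7.08e-09). Fpr1, a receptor for formylated bacterial peptides, was at 9.23, 7.35 and 9.08 CPM in Empty/T618I, against 0 CPM in all 3 Asxl1-MT2/Empty libraries, at least 86.1-fold higher against 3 counts over the group. Each of these genes was higher in all 3 Empty/T618I libraries, and their Empty/Empty means lay between at 4.33, 24.1 and 0.270 CPM. S100a8 and S100a9, the subunits of calprotectin, were at 1203, 911 and 699 CPM in Empty/T618I, against 522, 375 and 360.4 CPM in Asxl1-MT2/Empty for S100a8 (log2 fold change 1.16 ± 0.25 (SE), adjusted p = 0.003). S100a9 was at 1444, 1114 and 1165 CPM in Empty/T618I, against 449.7, 382 and 350.3 CPM in Asxl1-MT2/Empty (log2 fold change 1.66 ± 0.21 (SE), adjusted p = 4.61e-05). Itgam, the alpha chain of the neutrophil integrin Mac-1, went against the list at 194, 157 and 213 CPM in Empty/T618I, against 363, 289 and 314 CPM in Asxl1-MT2/Empty (log2 fold change -0.78 ± 0.12 (SE), adjusted p = 4.86e-05), as did Slpi, a protease inhibitor, with 107 ± 28.7 CPM in Empty/T618I and 207 ± 10.5 CPM in Asxl1-MT2/Empty (log2 fold change -0.96 ± 0.17 (SE), adjusted p = 3.37e-04).

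**Figure D3:**
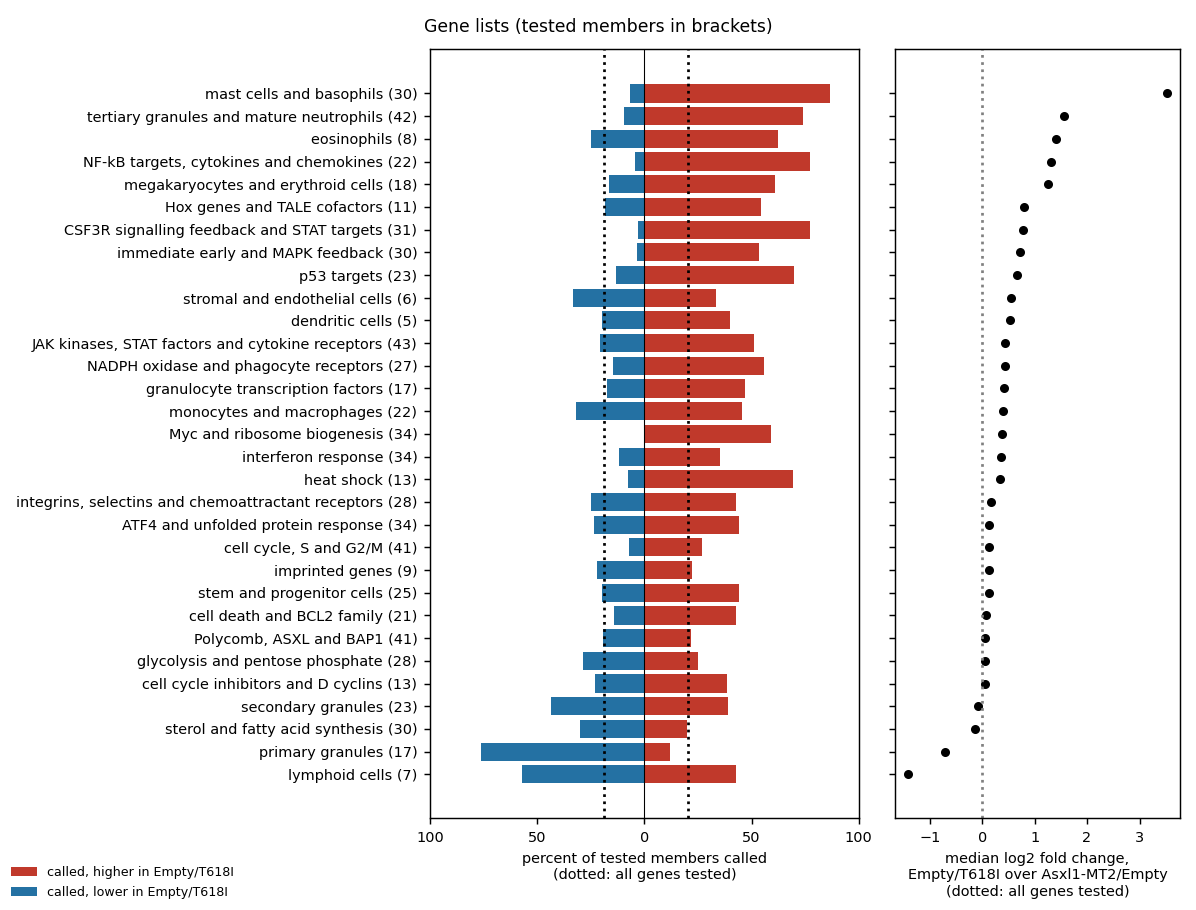
Left, percent of the tested members of each of 31 gene lists that were called higher (red, to the right) or lower (blue, to the left) in Empty/T618I, with dotted lines at 20.3% and 18.9% for all genes tested. Right, the median log2 fold change of each list, where mast cell and basophil genes stood highest at 3.53 and primary granule genes at -0.72.

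The transcription factors of granulocytes did not all follow the granule genes. Of 17 tested, 8 were called higher and 3 lower (all genes tested: 20.3% and 18.9%). Gfi1, a repressor needed for granulocyte fate, was at 174, 200.4 and 163 CPM in Empty/T618I, against 491, 463 and 365 CPM in Asxl1-MT2/Empty (log2 fold change -1.29 ± 0.11 (SE), adjusted p = 3.60e-08). Cebpe, which drives secondary granule genes, was at 136, 139.7 and 118 CPM in Empty/T618I, against 322, 268 and 224 CPM in Asxl1-MT2/Empty (log2 fold change -1.05 ± 0.11 (SE), adjusted p = 6.50e-07). Irf8, the factor of monocyte fate, was low in both groups at 0.865, 1.05 and 0.835 CPM in Empty/T618I, against 3.46, 4.04 and 10.28 CPM in Asxl1-MT2/Empty (log2 fold change -2.67 ± 0.42 (SE), adjusted p = 5.71e-05). All 3 were lower in every Empty/T618I library. Cebpa and Spi1, the factors that set up the myeloid programme, were not called: Cebpa was at 535 ± 64.5 CPM in Empty/T618I and 539 ± 42.5 CPM in Asxl1-MT2/Empty (adjusted p = 0.942). Spi1 was at 416 ± 26.4 CPM in Empty/T618I and 407 ± 51.7 CPM in Asxl1-MT2/Empty (adjusted p = 0.831). Rara, a retinoic acid receptor, was at 21.1, 23.8 and 18.99 CPM in Empty/T618I, against 1.09, 0.691 and 0.499 CPM in Asxl1-MT2/Empty (log2 fold change 4.79 ± 0.28 (SE), adjusted p = 6.49e-10). Runx1 was higher by 0.92 ± 0.086 (log2, SE, adjusted p = 1.24e-07), and Mxd1, an antagonist of Myc that rises as granulocytes mature, by 1.28 ± 0.11 (adjusted p = 4.63e-08).

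Monocyte genes were mixed, with 10 of 22 called higher and 7 lower (all genes tested: 20.3% and 18.9%). Ly6c2, the classical monocyte surface marker, was at 25.6, 17.7 and 12.9 CPM in Empty/T618I, against 238, 169.9 and 131 CPM in Asxl1-MT2/Empty (log2 fold change -3.26 ± 0.27 (SE), adjusted p = 1.88e-06), while Vcan, versican, was at 41.8, 34.5 and 74.0 CPM in Empty/T618I, against 5.83, 5.23 and 6.19 CPM in Asxl1-MT2/Empty (log2 fold change 3.12 ± 0.32 (SE), adjusted p = 5.90e-06). Lgals3, galectin 3, was at 28.0, 27.01 and 34.5 CPM in Empty/T618I, against 3.06, 2.56 and 5.09 CPM in Asxl1-MT2/Empty (log2 fold change 3.06 ± 0.32 (SE), adjusted p = 7.08e-06). Ly6c2 has close family members and its reads may be shared with them. The defining receptor Csf1r was at 16.3, 10.9 and 19.4 CPM in Empty/T618I and 13.1, 9.77 and 11.6 CPM in Asxl1-MT2/Empty and was not called (adjusted p = 0.12). The monocyte list summed to nearly the same level in both groups, 1883 to 1982 CPM in Empty/T618I and 1841 to 1970 CPM in Asxl1-MT2/Empty. Of 27 tested NADPH oxidase and phagocyte receptor genes, 15 were called higher and 4 lower. Cybb, which encodes the oxidase's catalytic chain, stood at 78.5, 65.3 and 78.5 CPM in Empty/T618I, against 35.6, 24.7 and 25.1 CPM in Asxl1-MT2/Empty (log2 fold change 1.38 ± 0.13 (SE), adjusted p = 2.39e-07). Cyba, its membrane partner, was lower, at 171, 154 and 135 CPM in Empty/T618I, against 252, 229 and 174 CPM in Asxl1-MT2/Empty (log2 fold change -0.51 ± 0.12 (SE), adjusted p = 0.002). The cytosolic subunit Ncf1 was not called. Among receptors, Tlr2 was at 49.1, 52.0 and 55.6 CPM in Empty/T618I, against 12.3, 12.1 and 11.4 CPM in Asxl1-MT2/Empty (log2 fold change 2.13 ± 0.12 (SE), adjusted p = 1.87e-10). C5ar1, the receptor for complement C5a, was at 19.7, 13.2 and 15.5 CPM in Empty/T618I, against 2.27, 1.09 and 1.70 CPM in Asxl1-MT2/Empty (log2 fold change 3.25 ± 0.26 (SE), adjusted p = 3.02e-08). Of 28 tested adhesion and chemoattractant receptor genes, 12 were called higher and 7 lower. Cxcr4, which holds progenitors in the marrow, was lower at 107, 94.4 and 99.1 CPM in Empty/T618I, against 232, 234 and 222 CPM in Asxl1-MT2/Empty (log2 fold change -1.19 ± 0.085 (SE), adjusted p = 4.31e-09).

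The largest shift of any list was in mast cell and basophil genes. Of 30 tested, 26 were called higher and 2 lower in Empty/T618I (all genes tested: 20.3% and 18.9%). By at least 2-fold, 25 were higher, and the median log2 fold change was 3.53. Their summed level was 8562 to 12776 CPM in Empty/T618I, 1800 to 1888 CPM in Asxl1-MT2/Empty and 2269 to 2469 CPM in Empty/Empty. Empty/T618I library B was lowest in this sum, and without it 26 members were still called higher. Mcpt8, a basophil protease, was at 1341, 753 and 1242 CPM in Empty/T618I, 78.2, 113 and 102 CPM in Asxl1-MT2/Empty and 104, 80.0 and 97.6 CPM in Empty/Empty (log2 fold change 3.51 ± 0.21 (SE), adjusted p = 2.42e-08). Mcpt1, a mast cell protease, was at 1439.5, 567 and 1186 CPM in Empty/T618I, against 0.0989, 0.296 and 1.40 CPM in Asxl1-MT2/Empty (log2 fold change 10.78 ± 0.54 (SE), adjusted p = 7.99e-08), and Mcpt4 had 0 counts in Asxl1-MT2/Empty against 43.4, 15.7 and 49.98 CPM in Empty/T618I, at least 363-fold. The Mcpt genes lie in 1 family on chromosome 14 and may share reads. Ms4a2, the beta chain of the IgE receptor, was at 309, 170.0 and 338 CPM in Empty/T618I, against 10.6, 15.5 and 12.5 CPM in Asxl1-MT2/Empty (log2 fold change 4.403 ± 0.26 (SE), adjusted p = 3.98e-08). Fcer1a, its alpha chain, was at 24.5, 10.7 and 36.0 CPM in Empty/T618I, against 0.0989, 0 and 0.0998 CPM in Asxl1-MT2/Empty. With 2 counts in Asxl1-MT2/Empty, the Fcer1a count ratio was 354 (95% interval 97.5 to 2926). Il1rl1, the receptor for interleukin-33, was at 331, 205 and 463 CPM in Empty/T618I, 1.78, 3.26 and 3.69 CPM in Asxl1-MT2/Empty and 9.56, 6.96 and 11.7 CPM in Empty/Empty (log2 fold change 6.83 ± 0.37 (SE), adjusted p = 6.74e-08). The summed level of mast cell and basophil genes in the cells with empty vectors was therefore well below that in Empty/T618I, but members differed. Cpa3 in Empty/Empty overlapped Empty/T618I and Kit was higher in Empty/Empty, as given below, while Mcpt1 was at 0.201, 0.0994 and 0.103 CPM in Empty/Empty. The part of these cell type genes in the other differences was not tested. The 2 members called lower were Kit, a defining receptor of mast cells whose values are given below with the progenitor genes (log2 fold change -1.74), and Il3ra. Il3ra, the interleukin-3 receptor alpha chain, was at 14.2 ± 1.96 CPM in Empty/T618I and 24.6 ± 1.90 CPM in Asxl1-MT2/Empty (log2 fold change -0.80 ± 0.16 (SE), adjusted p = 6.06e-04).

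The GATA factors of these lineages differed in the same direction. Gata2, needed for mast cells and for progenitors, was at 449, 294 and 481 CPM in Empty/T618I, 39.6, 40.3 and 42.5 CPM in Asxl1-MT2/Empty and 72.2, 63.6 and 63.1 CPM in Empty/Empty (log2 fold change 3.32 ± 0.14 (SE), adjusted p = 3.30e-11). Gata1, the factor of erythroid, megakaryocyte, mast and eosinophil cells, was at 56.1, 32.5 and 53.5 CPM in Empty/T618I, 0.791, 1.78 and 2.20 CPM in Asxl1-MT2/Empty and 5.44, 4.67 and 4.75 CPM in Empty/Empty (log2 fold change 4.89 ± 0.26 (SE), adjusted p = 3.11e-10). For both genes the 3 Empty/Empty libraries lay between the groups without overlap, and nearer Asxl1-MT2/Empty. The letters AGATAA, which these factors are known to bind, were searched on both strands. They were present in 6.35% of all promoter windows, 8.53% of those of genes called higher and 6.05% of those called lower. In the mast cell and basophil list they were present in 8 of the 22 windows of genes called higher (36.4%). The 3 promoters with a match and the largest fold changes of that list are shown to place those letters, a choice made after the values were seen.
Fcer1a, chr1:173227180-173227479, minus strand: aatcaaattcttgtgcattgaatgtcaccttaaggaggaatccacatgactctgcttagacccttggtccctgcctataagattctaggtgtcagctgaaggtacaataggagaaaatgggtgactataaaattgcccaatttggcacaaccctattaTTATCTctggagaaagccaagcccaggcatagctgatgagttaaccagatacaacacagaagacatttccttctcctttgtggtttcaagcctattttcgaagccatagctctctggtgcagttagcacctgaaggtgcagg
Il13, chr11:53634653-53634952, minus strand: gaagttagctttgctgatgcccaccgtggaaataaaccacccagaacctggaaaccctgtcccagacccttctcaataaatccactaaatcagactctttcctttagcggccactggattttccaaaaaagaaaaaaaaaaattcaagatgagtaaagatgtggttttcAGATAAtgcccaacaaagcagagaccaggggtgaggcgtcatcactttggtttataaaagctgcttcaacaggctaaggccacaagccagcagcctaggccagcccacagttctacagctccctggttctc
Il1rl1, chr1:40429320-40429619, plus strand: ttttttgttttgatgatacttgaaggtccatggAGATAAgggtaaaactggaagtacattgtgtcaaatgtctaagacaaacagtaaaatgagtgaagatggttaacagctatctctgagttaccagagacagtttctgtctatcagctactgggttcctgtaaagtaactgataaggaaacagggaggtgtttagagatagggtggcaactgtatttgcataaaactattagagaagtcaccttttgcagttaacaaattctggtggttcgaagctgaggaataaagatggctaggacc
The capitals mark the match, which in Fcer1a is on the opposite strand and so reads TTATCT. It begins 92 bases before the start that the window is built on in Fcer1a, 81 before in Il13 and 217 before in Il1rl1. The Il1rl1 window is the first of 2 and lies inside the gene's listed span (chromosome 1, 40404864 to 40465418). The windows of Gata1, Gata2, Mcpt1, Mcpt4 and Mcpt8 held none.

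Lists of further cell types gave fewer tested members, to be read against 20.3% called higher and 18.9% called lower over all genes tested. Of 8 tested eosinophil genes, 5 were called higher and 2 lower, but only 3 were called higher without Asxl1-MT2/Empty library A and 3 without the letter C libraries. Their summed levels overlapped, at 332 to 483 CPM in Empty/T618I and 371 to 465 CPM in Asxl1-MT2/Empty, against 480 to 576 CPM in Empty/Empty. Against Empty/Empty the list median was -0.36 for Empty/T618I and -1.47 for Asxl1-MT2/Empty. Prg2, the major basic protein of eosinophil granules, was at 87.1, 68.7 and 158 CPM in Empty/T618I, 25.01, 34.6 and 27.6 CPM in Asxl1-MT2/Empty and 158, 97.3 and 134 CPM in Empty/Empty (log2 fold change 1.84 ± 0.47 (SE), adjusted p = 0.011), and its call was lost without Asxl1-MT2/Empty library A. Epx, eosinophil peroxidase, was at 10.1 and 5.85 CPM in Empty/T618I and Asxl1-MT2/Empty and was not called (adjusted p = 0.398). Of 18 tested megakaryocyte and erythroid genes, 11 were called higher (10 by at least 2-fold, median 1.26) and 3 lower, and 1 lower without Empty/T618I library A or C. Itga2b, the integrin chain of megakaryocytes, was at 174, 129.7 and 183 CPM in Empty/T618I, against 30.9, 33.3 and 33.0 CPM in Asxl1-MT2/Empty (log2 fold change 2.32 ± 0.16 (SE), adjusted p = 9.60e-09). F2r, a thrombin receptor, was at 68.3, 45.6 and 69.1 CPM in Empty/T618I, against 0.0989, 0.296 and 0.200 CPM in Asxl1-MT2/Empty (log2 fold change 8.18 ± 0.36 (SE), adjusted p = 3.30e-11). Klf1, the erythroid factor, was at 3.46, 1.81 and 6.37 CPM in Empty/T618I, against 0.198, 0.395 and 0.399 CPM in Asxl1-MT2/Empty, and Pf4, platelet factor 4, at 1.06, 2.20 and 1.57 CPM in Empty/T618I and 0.989, 1.38 and 1.497 CPM in Asxl1-MT2/Empty. Of 25 lymphoid genes, 18 did not pass the filter on low counts. Of the 7 tested, 3 were called higher and 4 lower, with a median of -1.42. Igll1, whose values are given below, was among those called lower (log2 fold change -4.96). Il7r, the interleukin-7 receptor, was at 71.0, 46.6 and 90.4 CPM in Empty/T618I, against 0, 0 and 0.200 CPM in Asxl1-MT2/Empty, a count ratio of 1040.0 (95% interval 288 to 8591). Of 5 tested dendritic cell genes, 2 were called higher and 1 lower. The member called lower was H2-Ab1, a class II gene of antigen presentation, at 0.192, 0.573 and 0.313 CPM in Empty/T618I, against 6.72, 5.82 and 6.09 CPM in Asxl1-MT2/Empty (log2 fold change -4.06 ± 0.39 (SE), adjusted p = 2.04e-07). Among 6 stromal and endothelial genes, of which 2 were called in each direction, Vim was higher at 484, 397 and 515 CPM in Empty/T618I, against 179, 183 and 163 CPM in Asxl1-MT2/Empty (log2 fold change 1.41 ± 0.10 (SE), adjusted p = 4.75e-09), while Col1a1 stayed under 2 CPM in all 6 libraries.

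Progenitor genes moved apart from one another. Of 25 tested, 11 were called higher and 5 lower (all genes tested: 20.3% and 18.9%). Without Empty/T618I library C, without Asxl1-MT2/Empty library B or without the letter C libraries, 3 were called lower. Kit, the receptor for the stem cell factor in the medium, was at 109, 96.8 and 108 CPM in Empty/T618I, 343, 341 and 362 CPM in Asxl1-MT2/Empty and 326, 350.4 and 302 CPM in Empty/Empty (log2 fold change -1.74 ± 0.10 (SE), adjusted p = 3.69e-10). Its call was lost when library A or B of Empty/Empty was moved to the Empty/T618I group. Myb, a factor that keeps progenitors cycling, was at 571, 608 and 605 CPM in Empty/T618I, against 955, 962 and 1091 CPM in Asxl1-MT2/Empty (log2 fold change -0.75 ± 0.10 (SE), adjusted p = 1.45e-05). The call of Myb was lost under each of the 3 moves. Both were lower in each Empty/T618I library. Cd34, a surface marker of early progenitors, was higher at 233, 186 and 228 CPM in Empty/T618I, 92.9, 109.8 and 135 CPM in Asxl1-MT2/Empty and 239.5, 223 and 204 CPM in Empty/Empty (log2 fold change 0.94 ± 0.15 (SE), adjusted p = 1.36e-04). For Cd34 it was Asxl1-MT2/Empty that lay away from Empty/Empty (log2 fold change -0.98 ± 0.15 (SE), adjusted p = 0.0031), while Empty/T618I overlapped it. Ly6a, the Sca-1 antigen, was at 38.3, 18.8 and 40.4 CPM in Empty/T618I, against 1.29, 0.592 and 0.200 CPM in Asxl1-MT2/Empty (log2 fold change 5.52 ± 0.38 (SE), adjusted p = 2.66e-08). Meis1, the cofactor of Hox proteins, was higher at 13.3, 13.6 and 15.03 CPM in Empty/T618I, against 6.72, 7.60 and 9.68 CPM in Asxl1-MT2/Empty (log2 fold change 0.80 ± 0.18 (SE), adjusted p = 0.0013). Of 11 tested Hox and cofactor genes, 6 were called higher and 2 lower, Hoxb8 itself among the lower, with 1 lower without Empty/T618I library B or C or without Asxl1-MT2/Empty library A. Hoxb4 was at 14.996, 17.5 and 9.18 CPM in Empty/T618I, against 5.83, 8.09 and 5.99 CPM in Asxl1-MT2/Empty (log2 fold change 1.07 ± 0.25 (SE), adjusted p = 0.0028). Hoxa9 was at 0.577, 1.15 and 1.67 CPM in Empty/T618I and 0.395, 0.0987 and 0.0998 CPM in Asxl1-MT2/Empty, with a call (adjusted p = 0.0242) that was lost without Empty/T618I library B or C or without Asxl1-MT2/Empty library B or C.

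Cytokine and early response genes were mostly higher in Empty/T618I. Of 22 tested NF-kB targets, cytokines and chemokines, 17 were called higher and 1 lower (all genes tested: 20.3% and 18.9%), with a median of 1.32. Csf1, the growth factor of macrophages, was at 292, 281 and 392.4 CPM in Empty/T618I, against 9.89, 10.6 and 7.49 CPM in Asxl1-MT2/Empty (log2 fold change 5.11 ± 0.16 (SE), adjusted p = 5.11e-13). Il6 was at 16.3, 7.64 and 19.7 CPM in Empty/T618I, against 0.0989, 0.592 and 0 CPM in Asxl1-MT2/Empty (log2 fold change 5.90 ± 0.53 (SE), adjusted p = 2.00e-07). Ccl3 was at 17.7, 15.1 and 22.5 CPM in Empty/T618I, against 3.76, 2.27 and 2.99 CPM in Asxl1-MT2/Empty (log2 fold change 2.61 ± 0.27 (SE), adjusted p = 7.80e-07). Ccl2, a monocyte attractant, had 0 counts in Asxl1-MT2/Empty and 8.17, 2.004 and 6.47 CPM in Empty/T618I, at least 55.6-fold. The classical NF-kB feedback genes Nfkbia and Tnfaip3 were not called, with adjusted p of 0.0535 and 0.418 and means of 48.0 and 38.8 CPM for Nfkbia and 6.32 and 5.22 CPM for Tnfaip3 in Empty/T618I and Asxl1-MT2/Empty. Vegfa was the member called lower, at 60.3, 55.2 and 57.1 CPM in Empty/T618I, against 124, 113 and 102 CPM in Asxl1-MT2/Empty (log2 fold change -0.97 ± 0.084 (SE), adjusted p = 4.96e-08). Of 30 tested immediate early and MAPK feedback genes, 16 were called higher and 1 lower. Egr1 was at 55.5, 26.2 and 54.0 CPM in Empty/T618I, against 1.88, 1.97 and 1.70 CPM in Asxl1-MT2/Empty (log2 fold change 4.60 ± 0.30 (SE), adjusted p = 1.44e-08). Junb was at 224, 216 and 189 CPM in Empty/T618I, against 56.9, 62.9 and 55.5 CPM in Asxl1-MT2/Empty (log2 fold change 1.84 ± 0.11 (SE), adjusted p = 4.06e-10), but Fos (9.85 and 9.38 CPM) and Dusp6 (22.0 and 20.1 CPM) were not called. Of 34 tested interferon response genes, 12 were called higher and 4 lower (all genes tested: 20.3% and 18.9%). Isg15, a ubiquitin-like protein, was not called, at 0.845 and 0.627 CPM in Empty/T618I and Asxl1-MT2/Empty. Oas2, an antiviral gene, was at 4.61, 4.01 and 3.65 CPM in Empty/T618I, against 1.19, 0.592 and 0.599 CPM in Asxl1-MT2/Empty (log2 fold change 2.35 ± 0.41 (SE), adjusted p = 1.65e-04).

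Cell cycle genes differed little. Of 41 tested genes of S phase and mitosis, 11 were called higher and 3 lower (all genes tested: 20.3% and 18.9%), none by 2-fold. Without the letter C libraries 20 were called higher. Mki67, the proliferation antigen, was at 872, 851 and 1319 CPM in Empty/T618I, against 667, 702 and 747 CPM in Asxl1-MT2/Empty (log2 fold change 0.52 ± 0.15 (SE), adjusted p = 0.0107), highest in Empty/T618I library C. Ccne1, cyclin E1, was at 67.2, 67.1 and 60.2 CPM in Empty/T618I, against 37.3, 34.4 and 34.1 CPM in Asxl1-MT2/Empty (log2 fold change 0.88 ± 0.085 (SE), adjusted p = 1.87e-07). Pcna, Mcm2, Cdk1, Ccnb1 and Top2a were not called, with log2 fold changes between -0.053 and 0.24. Of 13 inhibitors and D cyclins, 5 were called higher and 3 lower. The inhibitors Cdkn1a (p21), at 97.3, 93.9 and 103 CPM in Empty/T618I, against 32.4, 30.5 and 33.0 CPM in Asxl1-MT2/Empty (log2 fold change 1.62 ± 0.11 (SE), adjusted p = 2.59e-09), and Cdkn2d (p19), with 80.7 ± 7.51 CPM in Empty/T618I and 35.0 ± 2.01 CPM in Asxl1-MT2/Empty (log2 fold change 1.21 ± 0.10 (SE), adjusted p = 5.06e-08), were higher. The D cyclins were split: Ccnd3 was higher at 557, 533 and 504 CPM in Empty/T618I, against 326, 314 and 289 CPM in Asxl1-MT2/Empty (log2 fold change 0.78 ± 0.10 (SE), adjusted p = 5.84e-06), against Ccnd2 above and Ccnd1, which was lower with 2.70 ± 1.02 CPM in Empty/T618I and 8.59 ± 0.690 CPM in Asxl1-MT2/Empty (log2 fold change -1.66 ± 0.25 (SE), adjusted p = 3.72e-05). Of 23 tested p53 targets, 16 were called higher and 3 lower. Ccng1 was higher by 0.60 ± 0.10 (log2, SE, adjusted p = 7.05e-05) and Mdm2, the ubiquitin ligase that degrades p53, by 0.39 ± 0.10 (adjusted p = 0.00413). Of 21 tested cell death genes, 9 were called higher and 3 lower, with 1 lower without Empty/T618I library A or B, Asxl1-MT2/Empty library C or Asxl1-MT2/T618I library B. Mcl1, a survival protein of myeloid cells, was at 325, 310.5 and 331 CPM in Empty/T618I, against 193, 181 and 207 CPM in Asxl1-MT2/Empty (log2 fold change 0.73 ± 0.11 (SE), adjusted p = 2.66e-05). Bcl2 was at 28.8 and 27.5 CPM in Empty/T618I and Asxl1-MT2/Empty and was not called.

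Of 34 tested Myc and ribosome biogenesis genes, 20 were called higher and none lower (all genes tested: 20.3% and 18.9%), with a median of 0.37. Ncl, nucleolin, was at 1828, 1966 and 2193 CPM in Empty/T618I, against 1196, 1344 and 1559 CPM in Asxl1-MT2/Empty (log2 fold change 0.55 ± 0.12 (SE), adjusted p = 0.00175). The helicase gene Ddx21 was at 357, 383 and 445 CPM in Empty/T618I, against 221, 237 and 292 CPM in Asxl1-MT2/Empty (log2 fold change 0.66 ± 0.12 (SE), adjusted p = 2.99e-04). Myc itself was at 358, 399.6 and 296 CPM in Empty/T618I and 299, 338 and 342 CPM in Asxl1-MT2/Empty and was not called (adjusted p = 0.49). Of 13 tested heat shock genes, 9 were called higher and 1 lower. Hsp90aa1 was at 1468, 1537 and 1648 CPM in Empty/T618I, against 891, 1002 and 1088 CPM in Asxl1-MT2/Empty (log2 fold change 0.64 ± 0.10 (SE), adjusted p = 3.22e-05). The ATF4 and unfolded protein list was split, with 15 of 34 higher and 8 lower (5 lower without Empty/T618I library A). Among the members called higher, the amino acid transporter gene Slc7a5 was at 1005, 979 and 1083 CPM in Empty/T618I, against 244, 276 and 285 CPM in Asxl1-MT2/Empty (log2 fold change 1.93 ± 0.09 (SE), adjusted p = 2.87e-11). Its partner Slc3a2 was at 419, 382 and 491 CPM in Empty/T618I, against 153, 160.0 and 150.3 CPM in Asxl1-MT2/Empty (log2 fold change 1.48 ± 0.085 (SE), adjusted p = 3.20e-10). The cystine transporter Slc7a11 was at 108, 139 and 125 CPM in Empty/T618I, against 27.3, 28.1 and 38.3 CPM in Asxl1-MT2/Empty (log2 fold change 1.99 ± 0.16 (SE), adjusted p = 6.33e-08). Atf4, Ddit3 and Asns were not called. Members called lower included the chaperone gene Calr, at 4779.7, 4582 and 4871 CPM in Empty/T618I, against 6247, 6762 and 7371 CPM in Asxl1-MT2/Empty (log2 fold change -0.52 ± 0.10 (SE), adjusted p = 3.35e-04), and Pdia6, which encodes a disulfide isomerase, with 536 ± 5.93 CPM in Empty/T618I and 795 ± 32.8 CPM in Asxl1-MT2/Empty (log2 fold change -0.57 ± 0.08 (SE), adjusted p = 1.76e-05).

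Glycolytic genes were also split, 7 of 28 higher and 8 lower (all genes tested: 20.3% and 18.9%). The glucose transporter gene Slc2a3 was at 99.5, 87.3 and 102 CPM in Empty/T618I, against 11.6, 16.6 and 14.2 CPM in Asxl1-MT2/Empty (log2 fold change 2.77 ± 0.14 (SE), adjusted p = 1.29e-10). Ldha was at 1061, 1155 and 1163 CPM in Empty/T618I, against 704, 780.0 and 795 CPM in Asxl1-MT2/Empty (log2 fold change 0.57 ± 0.079 (SE), adjusted p = 1.47e-05). Hk3, the hexokinase of myeloid cells, was lower at 239, 226 and 236 CPM in Empty/T618I, against 560.4, 535 and 469 CPM in Asxl1-MT2/Empty (log2 fold change -1.16 ± 0.078 (SE), adjusted p = 2.43e-09), and Pgd, of the pentose phosphate pathway, lower at 809, 741 and 661 CPM in Empty/T618I, against 1690.5, 1567 and 1423 CPM in Asxl1-MT2/Empty (log2 fold change -1.08 ± 0.093 (SE), adjusted p = 4.79e-08). Gapdh and Aldoa were not called. Of 30 tested genes of sterol and fatty acid synthesis, 6 were called higher and 9 lower. Scd1, a fatty acid desaturase, was at 43.1, 64.0 and 71.9 CPM in Empty/T618I, against 6.03, 13.1 and 22.4 CPM in Asxl1-MT2/Empty (log2 fold change 2.11 ± 0.35 (SE), adjusted p = 5.90e-04).

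Apart from Asxl1, the chromatin genes that ASXL1 works with were close to even. Of 41 tested Polycomb, ASXL and BAP1 genes, 9 were called higher and 8 lower, Asxl1 itself among the lower, with a median of 0.057. These shares were near those of all genes tested, 20.3% higher and 18.9% lower. Without Asxl1-MT2/Empty library A 4 were called higher, and without the letter C libraries 14. Bap1 was at 94.7 ± 2.87 CPM in Empty/T618I and 90.7 ± 1.10 CPM in Asxl1-MT2/Empty (adjusted p = 0.546). Ezh2, the Polycomb methyltransferase, was at 119 ± 2.43 CPM in Empty/T618I and 123 ± 11.0 CPM in Asxl1-MT2/Empty (adjusted p = 0.623). Suz12, Bmi1 and Rnf2 were not called either. Jarid2, a cofactor of Polycomb, was lower at 52.97, 59.9 and 71.7 CPM in Empty/T618I, against 108, 112 and 126 CPM in Asxl1-MT2/Empty (log2 fold change -0.91 ± 0.11 (SE), adjusted p = 3.85e-06), and Eed, a core subunit, was higher at 60.8, 62.1 and 64.5 CPM in Empty/T618I, against 41.7, 41.1 and 35.5 CPM in Asxl1-MT2/Empty (log2 fold change 0.66 ± 0.087 (SE), adjusted p = 7.50e-06). Of 9 tested imprinted genes, 2 were called higher and 2 lower, with 4 higher without Empty/Empty library B or C. Dlk1, an inhibitor of differentiation, was at 0, 0.0954 and 0.104 CPM in Empty/T618I, 13.8, 17.8 and 9.48 CPM in Asxl1-MT2/Empty and 1.11, 0.696 and 1.55 CPM in Empty/Empty, with 2 counts in all of Empty/T618I and a count ratio of Asxl1-MT2/Empty over Empty/T618I of 209 (95% interval 57.5 to 1730.0). H19 had 0 counts in Asxl1-MT2/Empty and 4.90, 2.58 and 3.97 CPM in Empty/T618I.

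Ranked by fold change among genes with at least 5 CPM in the higher group and no overlap, the 12 highest were Mcpt4, Mcpt1, Cd55, Tjp1, Il7r, Tpsab1, Spint1, Slc30a4, Mcpt2, Fpr1, Cd38 and Abca4. Of these, 9 had no count in Asxl1-MT2/Empty. Cd55, a complement inhibitor, was at 23.9, 11.4 and 28.6 CPM in Empty/T618I (at least 213-fold), and Tjp1, a tight junction protein, at 10.7, 15.7 and 10.7 CPM (at least 126-fold). The 12 lowest were Dlk1, Ptgds, Col4a6, Afap1, Tmem108, Kcnip3, Myo18b, Fcnb, Ednra, Igll1, Dlg2 and Col4a5. Afap1, an actin filament binding protein, was at 3.46, 0.286 and 0.417 CPM in Empty/T618I, 88.7, 88.2 and 87.4 CPM in Asxl1-MT2/Empty and 49.2, 57.0 and 48.3 CPM in Empty/Empty (log2 fold change -5.95 ± 0.72 (SE), adjusted p = 1.09e-04). Tmem108 was at 0.577, 0.382 and 0.417 CPM in Empty/T618I, 26.5, 25.9 and 25.8 CPM in Asxl1-MT2/Empty and 7.15, 9.44 and 7.53 CPM in Empty/Empty (log2 fold change -5.79 ± 0.22 (SE), adjusted p = 1.46e-12). Igll1, the surrogate light chain gene, was at 0.577, 0.382 and 0.313 CPM in Empty/T618I, 11.6, 16.2 and 13.3 CPM in Asxl1-MT2/Empty and 17.7, 18.6 and 22.2 CPM in Empty/Empty (log2 fold change -4.96 ± 0.36 (SE), adjusted p = 7.58e-09). The collagen IV genes Col4a5 and Col4a6, neighbours on chromosome X, were both in this group, at 0.385, 0.0954 and 0.209 CPM in Empty/T618I, against 6.43, 7.10 and 5.99 CPM in Asxl1-MT2/Empty for Col4a5 and 0.0961, 0 and 0.104 CPM in Empty/T618I, against 6.23, 4.74 and 5.89 CPM in Asxl1-MT2/Empty for Col4a6. Serpine2, a protease inhibitor and 1 of the 5 genes with the smallest p, was at 95.7, 97.2 and 75.9 CPM in Empty/T618I, 1.78, 1.28 and 1.10 CPM in Asxl1-MT2/Empty and 1.31, 1.79 and 1.65 CPM in Empty/Empty (log2 fold change 6.001 ± 0.19 (SE), adjusted p = 3.57e-13).

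The libraries with empty vectors, which the direct comparison does not use for its means, show on which side each difference lies. Over the 4544 genes called, the Empty/Empty mean (log2 CPM) was nearer Asxl1-MT2/Empty in 88.8%, against 73.9% over all genes tested. That share was 81.2%, 80.1% and 82.7% after library A, B and C of Empty/Empty was moved in turn to the Empty/T618I group. The Empty/Empty range overlapped that of Asxl1-MT2/Empty alone in 62.2% of called genes, against 34.1% of all genes tested. It overlapped that of Empty/T618I alone in 5.83%, near the 5.45% over all genes tested, and both in 12.1%, against 49.97%. It lay between them without overlap in 16.4%, against 6.53%, and outside both in 3.48%, near the 3.96% over all genes tested. Among the 1523 genes called with at least 2-fold, it lay between without overlap in 29.7%. Each comparison with Empty/Empty shares these control libraries. Empty/T618I differed from Empty/Empty in 3875 genes (33.5%) and Asxl1-MT2/Empty in 204 (1.76%), with median absolute log2 fold changes of 0.22 and 0.096.

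**Figure D4:**
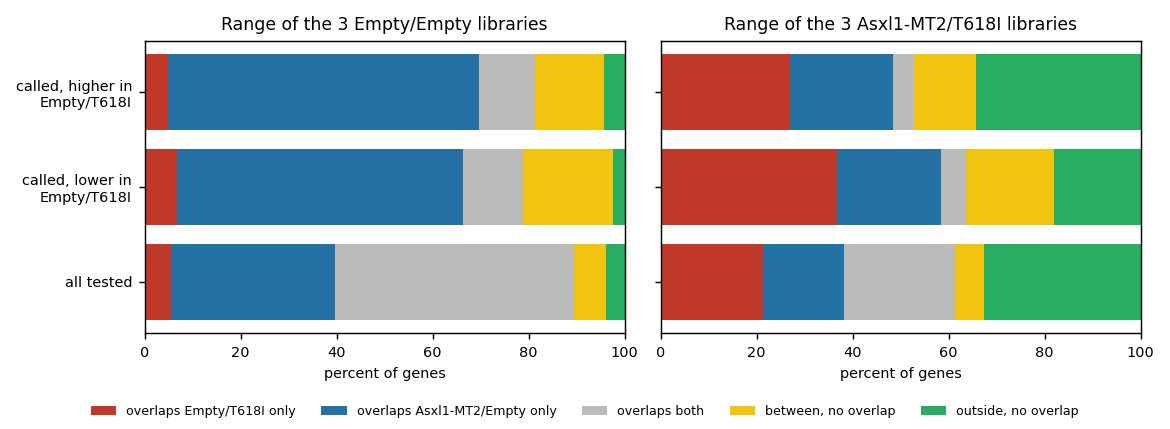
Percent of genes whose range over the 3 Empty/Empty libraries (left) or the 3 Asxl1-MT2/T618I libraries (right) overlaps the range of Empty/T618I, of Asxl1-MT2/Empty, of both, or of neither, for genes called higher, called lower and all tested. Over all called genes the Empty/Empty range overlapped Asxl1-MT2/Empty alone in 62.2%, and the Asxl1-MT2/T618I range did so in 21.7%.

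In a first pattern the 3 Empty/Empty libraries lay between the groups without overlap, as given above for Il1rl1 and Gata1. Btla, an inhibitory immune receptor, was at 41.1, 35.6 and 38.8 CPM in Empty/T618I, 0.791, 1.97 and 1.80 CPM in Asxl1-MT2/Empty and 4.13, 5.47 and 6.91 CPM in Empty/Empty (log2 fold change 4.65 ± 0.22 (SE), adjusted p = 2.87e-11). Against Empty/Empty its log2 fold change was 2.81 ± 0.18 (SE), adjusted p = 1.53e-09 for Empty/T618I, and -1.85 ± 0.27 (SE), adjusted p = 9.99e-04 for Asxl1-MT2/Empty. Fpr2, a second formyl peptide receptor, was at 15.3, 7.83 and 10.4 CPM in Empty/T618I, 0.297, 0.197 and 0.299 CPM in Asxl1-MT2/Empty and 2.32, 0.994 and 1.55 CPM in Empty/Empty (log2 fold change 5.34 ± 0.54 (SE), adjusted p = 2.42e-06). Saa3, an acute phase protein, was at 39.5, 35.3 and 43.5 CPM in Empty/T618I, 0.198, 0 and 0.299 CPM in Asxl1-MT2/Empty and 0.503, 0.497 and 3.61 CPM in Empty/Empty (log2 fold change 7.79 ± 0.62 (SE), adjusted p = 1.21e-06). In the other direction, Mgll, monoacylglycerol lipase, was at 1.44, 0.668 and 1.88 CPM in Empty/T618I, 25.6, 20.4 and 21.0 CPM in Asxl1-MT2/Empty and 6.44, 6.06 and 5.16 CPM in Empty/Empty (log2 fold change -4.07 ± 0.31 (SE), adjusted p = 3.40e-08). Cd28, a costimulatory receptor, was at 0.385, 0.668 and 0.939 CPM in Empty/T618I, 10.6, 12.04 and 13.2 CPM in Asxl1-MT2/Empty and 4.43, 3.58 and 5.57 CPM in Empty/Empty (log2 fold change -4.16 ± 0.28 (SE), adjusted p = 2.24e-09). Samd4 had 0 counts in Empty/T618I against 3.46, 2.76 and 2.40 CPM in Asxl1-MT2/Empty, at least 29.2-fold lower in Empty/T618I. Asxl1-MT2/Empty against Empty/Empty was called for Gata1, Btla, Mgll, Cd28 and Samd4, and not for Il1rl1 (log2 fold change -1.69 ± 0.47 (SE), adjusted p = 0.134), Fpr2 (log2 fold change -2.56 ± 0.80 (SE), adjusted p = 0.176) or Saa3 (log2 fold change -3.11 ± 1.21 (SE), adjusted p = 0.352). For these last genes a side of Empty/Empty is therefore shown for Empty/T618I alone.

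In a second pattern, Empty/Empty overlapped Empty/T618I but not Asxl1-MT2/Empty. Cpa3, carboxypeptidase A of mast cells, was at 933, 599 and 1183 CPM in Empty/T618I, 242, 268 and 297 CPM in Asxl1-MT2/Empty and 620.4, 518 and 576 CPM in Empty/Empty (log2 fold change 1.752 ± 0.21 (SE), adjusted p = 2.02e-05). Its log2 fold change against Empty/Empty was 0.66 ± 0.20 (SE), adjusted p = 0.0224 for Empty/T618I and -1.09 ± 0.20 (SE), adjusted p = 0.0181 for Asxl1-MT2/Empty. Mdga1 was at 19.7, 17.5 and 13.1 CPM in Empty/T618I, 5.73, 7.50 and 7.39 CPM in Asxl1-MT2/Empty and 18.02, 16.8 and 15.4 CPM in Empty/Empty (log2 fold change 1.29 ± 0.25 (SE), adjusted p = 5.63e-04). Grb10, an adaptor of insulin signalling, was at 18.6, 11.4 and 47.4 CPM in Empty/T618I, 4.45, 6.81 and 3.39 CPM in Asxl1-MT2/Empty and 12.6, 10.34 and 12.4 CPM in Empty/Empty (log2 fold change 2.39 ± 0.59 (SE), adjusted p = 0.00891). The Grb10 call was lost without the letter C libraries, and Asxl1-MT2/Empty against Empty/Empty was not called for it (log2 fold change -1.27 ± 0.62 (SE), adjusted p = 0.531). Among genes lower in Empty/T618I, Acsf2, an acyl-CoA synthetase, was at 6.34, 7.06 and 8.56 CPM in Empty/T618I, 23.7, 20.6 and 24.4 CPM in Asxl1-MT2/Empty and 7.55, 7.75 and 8.25 CPM in Empty/Empty (log2 fold change -1.65 ± 0.18 (SE), adjusted p = 6.59e-07). Nrp2, neuropilin 2, was at 6.25, 2.48 and 4.28 CPM in Empty/T618I, 13.1, 13.5 and 15.2 CPM in Asxl1-MT2/Empty and 6.14, 5.96 and 6.29 CPM in Empty/Empty (log2 fold change -1.68 ± 0.20 (SE), adjusted p = 3.23e-06). Rtn4r, the Nogo receptor, was at 14.9, 15.5 and 14.4 CPM in Empty/T618I, 30.1, 32.1 and 28.8 CPM in Asxl1-MT2/Empty and 20.3, 16.2 and 14.7 CPM in Empty/Empty (log2 fold change -1.02 ± 0.16 (SE), adjusted p = 7.63e-05). In these genes the 3 Asxl1-MT2/Empty libraries did not overlap the other 6.

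In the last pattern both lesions lay on 1 side of Empty/Empty. Rtn4rl2 was at 47.3, 54.3 and 36.4 CPM in Empty/T618I, 4.84, 9.17 and 6.19 CPM in Asxl1-MT2/Empty and 2.72, 1.79 and 1.34 CPM in Empty/Empty, Nt5e, the ectoenzyme CD73, at 32.3, 51.2 and 52.0 CPM in Empty/T618I, 15.03, 11.0 and 15.6 CPM in Asxl1-MT2/Empty and 5.13, 2.98 and 5.47 CPM in Empty/Empty, and Lipg, endothelial lipase, at 86.4, 94.4 and 102 CPM in Empty/T618I, 3.16, 1.68 and 2.30 CPM in Asxl1-MT2/Empty and 1.61, 0.895 and 0.516 CPM in Empty/Empty. In each, all libraries of both groups lay above Empty/Empty, but Asxl1-MT2/Empty against Empty/Empty was not called for Lipg (log2 fold change 1.22 ± 0.39 (SE), adjusted p = 0.172). All were higher in Empty/T618I than in Asxl1-MT2/Empty (log2 fold change 2.77 ± 0.19 (SE), adjusted p = 6.74e-09 for Rtn4rl2, adjusted p = 7.14e-05 for Nt5e and 6.72e-12 for Lipg). Itgb3, the integrin beta 3 chain, was below Empty/Empty in all libraries of both groups, at 8.75, 9.07 and 9.08 CPM in Empty/T618I, 17.0, 23.6 and 29.3 CPM in Asxl1-MT2/Empty and 32.7, 34.5 and 40.1 CPM in Empty/Empty (log2 fold change -1.38 ± 0.19 (SE), adjusted p = 1.79e-05), with no call for Asxl1-MT2/Empty against Empty/Empty (log2 fold change -0.62 ± 0.17 (SE), adjusted p = 0.0834).

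**Figure D5:**
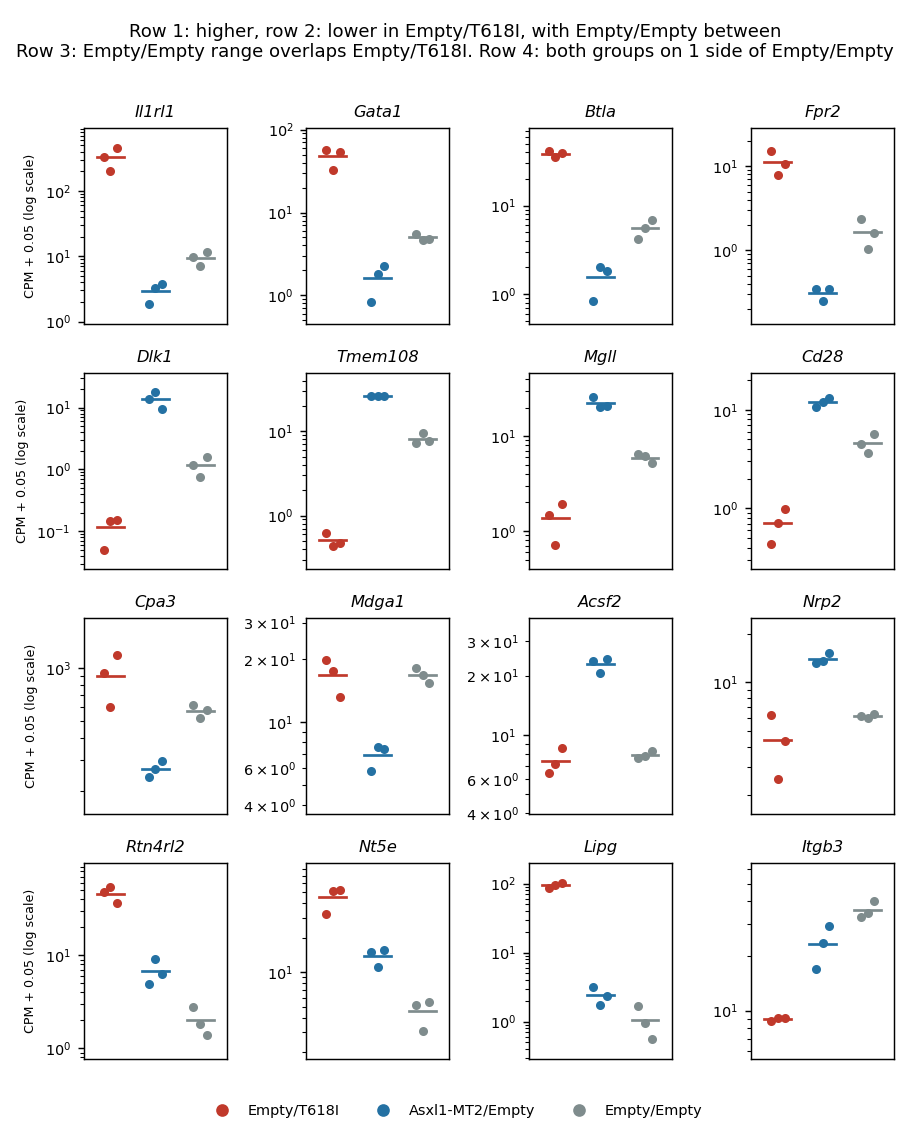
Levels of 16 genes in CPM plus 0.05 on a log axis, with 1 point per library and a line at the mean, for Empty/T618I, Asxl1-MT2/Empty and Empty/Empty from left to right. Rows show genes higher and lower in Empty/T618I with Empty/Empty between, genes in which Empty/Empty overlaps Empty/T618I, and genes in which both groups lie on 1 side of Empty/Empty, such as Itgb3 at means of 8.96, 23.3 and 35.8 CPM.

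The cells with both constructs stood nearer Empty/T618I than Asxl1-MT2/Empty in 62.5% of called genes, against 56.1% of all genes tested, and in 75.2% of those called with at least 2-fold. They lay outside both single lesions without overlap in 26.4% of called genes, below the 32.5% over all genes tested. Mmp8 was at 2536, 1900.4 and 1322 CPM and Cxcr2 at 886, 689.9 and 531 CPM in Asxl1-MT2/T618I, above every library of either single lesion. Mast cell and basophil genes summed to 8148 to 8381 CPM there, below all 3 Empty/T618I libraries, and Il1rl1 was at 174, 137 and 146 CPM. Mpo, at 9136, 10484 and 12605 CPM, and Kit, at 75.9, 89.8 and 106 CPM, were near or below their Empty/T618I levels. Csf3r was at 1688, 1334 and 967 CPM.

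Among the genes named above, the calls that were lost when at least 1 Empty/Empty library was moved to the Empty/T618I group were those of Afap1, Bcl6, Calr, Camp, Ccl2, Ccnd1, Ccnd2, Ccnd3, Ccng1, Cd38, Cdkn2d, Col4a5, Col4a6, Csf3r, Ctsc, Ctsg, Cybb, Ddx21, Dlg2, Ednra, Fcnb, H19, H2-Ab1, Hk3, Hoxb4, Hoxb8, Hsp90aa1, Igll1, Il3ra, Itgb3, Jak2, Jarid2, Kcnip3, Kit, Lcn2, Lgals3, Mcl1, Mdm2, Meis1, Mki67, Mpo, Myb, Ncl, Ngp, Nt5e, Oas2, Prtn3, Ptgds, Rtn4rl2, S100a8, S100a9, Scd1, Spint1 and Tnfrsf1b. Each move mixed a library with Socs3 at 11.9 to 13.8 CPM into a group at 151 CPM or more. The list therefore does not show which calls hold under the titles.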

How the data were processed

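Analysis started from unnormalised gene counts, which the authors deposited for 12 libraries under gene symbols, per the file headers. Trimmomatic, STAR, DESeq2 and the genome build mm10 are named without versions, per the submitters' processing notes. The counter, annotation and strand setting are not given in the sources used here, so reads of overlapping, antisense or near-identical genes (the Mcpt, Ly6, Oas and Csf2rb families among them) may be split in unknown ways. RNA was extracted with a Qiagen micro kit and libraries were made by BGI, per the labels' protocols.

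Of 24411 symbols, 7965 had no count in any library. The filterByExpr function of edgeR 4.0.16 (R 4.3.3) kept 11578, which hold 99.9% of the counts. TMM factors ran from 0.919 to 1.03. All 12 libraries entered 1 robust quasi-likelihood model with 4 group means, in which Empty/T618I was contrasted with Asxl1-MT2/Empty. Adjusted p-values are Benjamini-Hochberg values over the 11578 genes. Values are given for libraries A, B and C in that order, or as mean ± SD (n = 3). SE is an approximate standard error, the absolute log2 fold change divided by the square root of the F statistic of the quasi-likelihood test. Where a group had 0 counts, the fold is a bound against 3 counts over the group, and a group total of 1 to 3 counts gives a ratio with an exact 95% interval. Both cover counting error only.

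Tested on simulated data for this comparison (11439 genes), the fit called 76.1% of true 1.5-fold changes, 95.5% at 2-fold and 100% at 4-fold, with 12 false calls. The genes changed numbered 67, 67 and 66 at these sizes, each with a mean of at least 5 CPM. These rates therefore do not cover genes at lower levels, or data in which 39.2% of genes are called. No library pair within a group was a copy, as chi-square per degree of freedom ran from 3.34 to 10.7. Gene lists are described by counts and medians, with no set test. Some lists share members, such as Kit and Igll1, so their counts are not independent. The comparison, the 31 gene lists and the rule for named genes were chosen with earlier results of these data known. The rule named the construct genes with Socs3 and Kit, the 12 largest differences each way at 5 CPM or more without overlap, up to 5 called members each way per list with chosen members, up to 8 or 5 each way by where the Empty/Empty libraries lie, and the 5 smallest p. GATA-motif promoters were chosen after their values were seen. Gene positions and promoters are from RefSeq (GRCm38.p6), where 1801 genes had more than 1 window and the first was used. DESeq2 1.42.0, other scalings, filters, sets of libraries and labels were tried as alternatives. Some named genes are not reported here.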

Additional observations from a re-analysis of the deposited data

How the results depend on the processing

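With each Empty/Empty library A, B and C counted in turn as Empty/T618I, because of the disputed genotype, called genes fell to 2085, 2007 and 2640, higher ones to 1295, 1226 and 1579, lower ones to 790, 781 and 1061, and those of at least 2-fold to 907, 876 and 942. The share higher was then 62.1%, 61.1% and 59.8%, against 51.8%. Empty/Empty was nearer Asxl1-MT2/Empty in 81.2%, 80.1% and 82.7% of called genes. Of the 309 named genes called, 128 lost the call under at least 1 of these 3 relabellings, Kit and Hoxb8 among them. Mc5r lost its call under all 3, and its log2 fold change of -1.08 became 0.040378, 0.051335 and 0.039431, small values of opposite sign. The cause was not tested, though each relabelling mixes libraries with Socs3 at 11.9 to 13.8 CPM into a group at 151 CPM or more.

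The other alternatives kept the 4 gene counts within 1.5 times, except for a filter at 5 CPM, chosen after seeing the data. That filter, which drops genes at low levels, left 972 genes of at least 2-fold, against 1523 in the main fit. All calls fell less, to 3942 from 4544. DESeq2 called 4453 genes (2363 higher, 2090 lower). Leaving out each library gave 3736 to 4806 called genes and a share nearer Asxl1-MT2/Empty of 84.0% to 91.1%, with 86.4% when Empty/Empty library A was left out of the position alone. Without the letter C libraries that share was 82.2%. Of the 309, 37 lost the call without at least 1 library. The column letter as a replicate block gave 4945 calls, 4525 of them shared with the fit without it. Same-letter deviations correlated at 0.147, 0.0448 and 0.181, against -0.180 to 0.0639 between different letters. Whether the letters pair libraries was not tested, and the main fit holds no term for the letter. Every library but Asxl1-MT2/Empty B correlated best with its own letter. A filter at 1 CPM kept the same 11578 genes. Depth limits genes near 1 CPM, where a library of 9341984 counts holds few reads.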
